A study of Mus musculus with 16 samples.

Results

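The genes described here are 10 steroid-converting enzymes of the mouse terminal ileum: the aldo-keto reductases Akr1c14, Akr1c12, Akr1c13 and Akr1c19, the hydroxysteroid dehydrogenases Hsd11b1, Hsd11b2, Hsd17b2, Hsd17b11 and Hsd17b13, and the reductase Srd5a1. They were taken by symbol from the 24940 genes of the count table, where each symbol had a single row, and all 10 passed the filter on low counts in every comparison. The grouping was built around Akr1c14, which was picked because it was lower in LKO than in WT in these same libraries, so every genotype difference below is given as a description and not as a test. Poly(A) RNA was sequenced from ileum just proximal to the cecum of C57BL/6 mice. All 16 mice carried loxP-flanked Bcl6 (Bcl6 fl/fl). The 4 male WT and 4 female WT animals had no further allele named, and the 4 male LKO and 4 female LKO animals (Bcl6LKO) also carried Albumin-Cre, which deletes Bcl6 in hepatocytes, so the ileum itself keeps the gene. No treatment or time point was named, the methods give feeding as ad libitum or a 4-hour fast, and ages are not given in the sources used here.

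Steroid hormones are switched on and off by enzymes that add or remove hydrogen at a few positions of the steroid ring. Aldo-keto reductases of the AKR1C family use NADPH to reduce ketone groups on steroids and on other carbonyl compounds, and Akr1c14 encodes a hydroxysteroid dehydrogenase of that family. Among the dehydrogenases, Hsd11b1 regenerates active glucocorticoid and Hsd11b2 inactivates it, which protects the mineralocorticoid receptor in aldosterone target tissues such as the distal gut. Hsd17b2 oxidises estradiol and testosterone to weaker ketosteroids. Hsd17b11 and Hsd17b13 encode lipid droplet proteins, and Srd5a1 converts testosterone to dihydrotestosterone.

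The 4 Akr1c genes lie close together on chromosome 13 (mm10). Akr1c14 (NM_134072, 4059591 to 4090422, plus strand) comes first, followed by Akr1c13 (NM_013778, 4191187 to 4205603, plus strand), Akr1c19 (NM_001013785, 4233740 to 4248359, plus strand) and Akr1c12 (NM_013777, 4268172 to 4279399, minus strand). Their coding sequences in GENCODE have the same length of 972 bases. Akr1c12 and Akr1c13 differed at 37 of these bases (96.19% identity), whereas Akr1c14 shared between 72.02% and 73.77% of its bases with the other members and Akr1c19 shared 77.78% with both Akr1c12 and Akr1c13. The reads were 100 bases long and the authors kept only those with a single mapping position, so a read from a stretch that Akr1c12 and Akr1c13 share exactly would have been dropped. Such windows made up 134 of the 1163 windows of read length in the Akr1c13 transcript (11.5%) and 134 of 1162 in Akr1c12. Akr1c14 and Akr1c19 had 0 windows in common with another gene. The first line below is a coding stretch (bases 34 to 133) in which Akr1c12 and Akr1c13 are identical, shown because reads from it cannot be assigned. The next 4 lines are coding bases 303 to 402, where Akr1c12 and Akr1c13 differ most, shown because reads from it separate the genes. Capitals mark bases that differ from Akr1c13, of which there are 12 in Akr1c12, 23 in Akr1c19 and 28 in Akr1c14.
Akr1c13 and Akr1c12, bases 34 to 133: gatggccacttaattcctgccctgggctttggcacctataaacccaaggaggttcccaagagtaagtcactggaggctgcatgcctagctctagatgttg
Akr1c13, bases 303 to 402: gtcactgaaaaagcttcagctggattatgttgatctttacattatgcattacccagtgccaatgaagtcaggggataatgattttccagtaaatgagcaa
Akr1c12, bases 303 to 402: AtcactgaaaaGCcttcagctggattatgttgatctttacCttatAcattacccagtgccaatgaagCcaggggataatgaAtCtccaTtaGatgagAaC
Akr1c19, bases 303 to 402: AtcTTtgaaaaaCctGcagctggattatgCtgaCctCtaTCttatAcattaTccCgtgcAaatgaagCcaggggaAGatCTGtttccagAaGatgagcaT
Akr1c14, bases 303 to 402: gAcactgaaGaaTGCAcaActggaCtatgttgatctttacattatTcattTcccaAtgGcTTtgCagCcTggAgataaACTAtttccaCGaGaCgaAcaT

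The 250 bases before the annotated start of Akr1c12 (RefSeq, GRCm38.p6) also resembled those of Akr1c13. In a global alignment 235 of the 250 bases of Akr1c12 were identical to Akr1c13 (94%). For Akr1c19 the number was 156 of 250 (62.4%) and for Akr1c14 133 of 250 (53.2%). Unrelated sequences were not aligned for comparison. Shown are Akr1c13, Akr1c12 as the most like it and Akr1c14 as the least like it. Over both sexes the genotype log2 fold change was -0.79 for Akr1c14, -0.43 for Akr1c19, -0.34 for Akr1c13 and -0.22 for Akr1c12. A relation of these differences to upstream sequence was not tested. Capitals in Akr1c12 mark bases without an identical partner in Akr1c13.
Akr1c13, chr13:4190937-4191186, plus strand: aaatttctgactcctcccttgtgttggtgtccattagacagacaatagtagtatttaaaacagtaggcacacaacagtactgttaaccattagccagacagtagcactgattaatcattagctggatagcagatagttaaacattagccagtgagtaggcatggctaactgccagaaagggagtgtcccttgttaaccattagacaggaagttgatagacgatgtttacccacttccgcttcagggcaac
Akr1c12, chr13:4279400-4279649, minus strand: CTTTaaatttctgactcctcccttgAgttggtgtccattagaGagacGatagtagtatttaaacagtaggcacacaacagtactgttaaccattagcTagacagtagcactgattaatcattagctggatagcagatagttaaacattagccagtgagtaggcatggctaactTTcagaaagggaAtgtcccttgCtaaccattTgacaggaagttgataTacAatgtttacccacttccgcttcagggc
Akr1c14, chr13:4059341-4059590, plus strand: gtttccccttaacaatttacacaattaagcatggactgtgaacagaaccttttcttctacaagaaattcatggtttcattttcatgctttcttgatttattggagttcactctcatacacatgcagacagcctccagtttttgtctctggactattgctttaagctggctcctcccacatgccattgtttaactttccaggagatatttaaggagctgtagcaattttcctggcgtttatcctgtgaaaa

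Promoter windows of 300 bases were found for 8 of the 10 genes, all but Hsd11b2 and Hsd17b2. On both strands, 0 of the 8 held TATAAA, which 13.6% of all 32851 promoters of that length held. The nuclear receptor hexamer AGGTCA was in 1 of the 8, that of Hsd17b13, against 16.3% of all promoters.

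The gene counts summed to between 15.7 and 20.5 M (mega) in 15 libraries, while female LKO replicate 1 reached 60.3 M. Levels are counts per M counts (CPM) after TMM scaling, and 3 counts, the limit that a count of 0 allows, equalled 0.0485 to 0.191 CPM. This limit covers counting error only. The lowest count of any of the 10 genes in any library was 92. In all 24 replicate pairs the counts differed beyond sampling noise, and since the labels do not describe the animals further, p-values measure the spread between these libraries. Of the 8 ileal enterocyte markers 0 were near 0, and of the 7 measured markers of colon and cecum epithelium 1 (Hoxb13) was at 3 counts or fewer. The summed colon and cecum markers ranged from 169 to 1405 CPM across libraries.

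Levels of different genes are compared only after division by exon length (CPM per kilobase). Averaged over all 16 libraries, Hsd17b11 (chromosome 5, 103989765 to 104021796) was highest at 127 ± 9.27 CPM per kilobase (SD, n = 16), above the next gene in 16 of 16 libraries. Hsd17b2 (chromosome 8, 117701946 to 117759029) followed at 62.0 ± 9.52, Akr1c12 at 55.8 ± 7.64 and Akr1c13 at 50.1 ± 9.46 CPM per kilobase. Hsd17b2 exceeded Akr1c12 in 11 of 16 libraries, so these neighbours did not separate beyond their spread. Lengths were not corrected for the 11.5% of windows that Akr1c12 and Akr1c13 share. Both may therefore be understated against genes without shared windows. Akr1c12 exceeded Akr1c13 in 15 of 16 libraries, with a median ratio of 1.10. Akr1c19 stood at 38.1 ± 10.6, Hsd11b2 (chromosome 8, 105518746 to 105523988) at 28.9 ± 4.63 and Akr1c14 at 20.5 ± 6.29 CPM per kilobase. The last 3 genes were Hsd17b13 (chromosome 5, 103963465 to 103977388), Srd5a1 (chromosome 13, 69573449 to 69611463) and Hsd11b1 (chromosome 1, 193221641 to 193242360), at 6.70, 6.29 and 6.27 CPM per kilobase, and their order was not stable across groups. Per length, the glucocorticoid-inactivating Hsd11b2 exceeded the regenerating Hsd11b1 in all libraries, by a median of 4.61-fold and a range of 3.07 to 5.74. Of the read-length windows of Srd5a1, 14.9% also occur, on either strand, in transcripts of Gm17108. The positions of these genes were not compared, so the count of Srd5a1 is uncertain.

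The study compared LKO with WT within each sex to ask how the loss of hepatic Bcl6 affects the ileum. Akr1c14 stood at 68.2, 72.4, 61.4 and 65.7 CPM in male WT and at 43.3, 47.9, 29.7 and 41.3 CPM in male LKO (replicates 1 to 4). In females it stood at 63.4, 46.7, 66.4 and 60.1 CPM in WT and at 34.5, 31.1, 30.0 and 35.4 CPM in LKO. All LKO libraries were below all WT libraries in both sexes. The means were 66.9 ± 4.61 and 40.6 ± 7.77 CPM in males and 59.1 ± 8.71 and 32.7 ± 2.60 CPM in females (SD, n = 4 each). On the log2 scale the males differed by -0.72 (SE 0.12), the females by -0.85 (SE 0.10) and both sexes combined by -0.79 (SE 0.086), where LKO was at 0.580 times the WT level. In bulk tissue, fewer cells of a type and less RNA per cell cannot be told apart. The numbers that open the sample titles fall into 5 runs of neighbouring numbers whose meaning the labels do not give. In the only run with males of both genotypes the single male WT library was at 65.7 CPM and the single male LKO library at 43.3 CPM. In females WT stood at 63.4 and 46.7 CPM against 34.5 CPM in LKO in 1 run, and at 60.1 CPM against 31.1, 30.0 and 35.4 CPM in another.

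**Figure D1:**
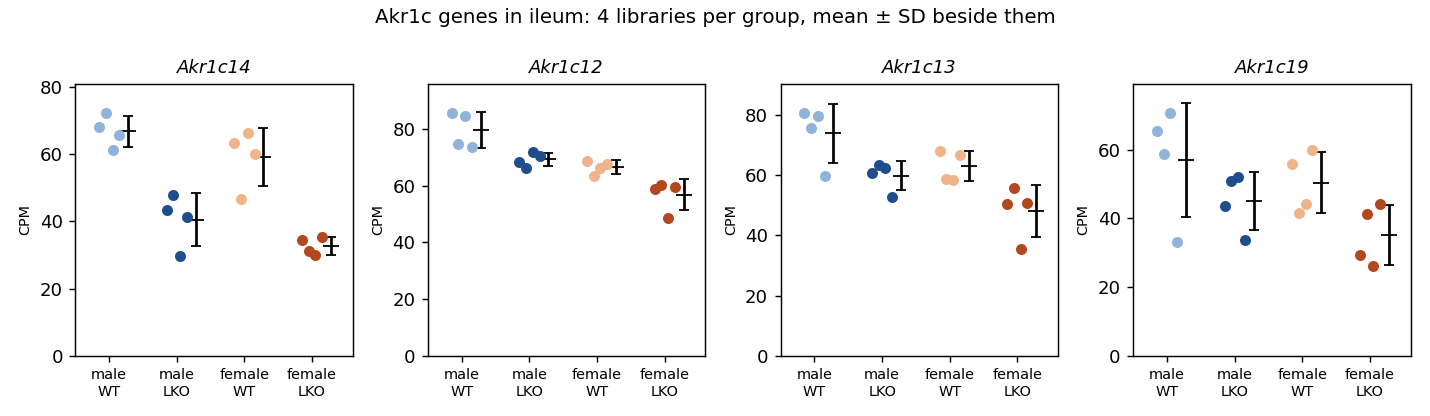
Levels of Akr1c14, Akr1c12, Akr1c13 and Akr1c19 in CPM (vertical axes, from 0) in the 4 groups; each point is a library and the bar beside it is the mean ± SD (n = 4). For Akr1c14 the 4 LKO libraries lie below the 4 WT libraries in each sex, and the other Akr1c genes show smaller gaps.

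Akr1c12 and Akr1c13, the near-identical pair, had lower means in LKO in both sexes, by less, and neither passed over both sexes (edgeR adjusted p 0.0608 and 0.0849). Akr1c12 was at 85.6, 74.8, 84.7 and 73.6 CPM in male WT and at 68.5, 66.1, 71.7 and 70.6 CPM in male LKO. In females it was at 68.8, 63.4, 66.4 and 67.7 CPM in WT and at 58.9, 60.2, 48.7 and 59.5 CPM in LKO. The genotypes did not overlap in either sex, although the gap was small, and the log2 fold change in males was -0.20 (SE 0.070), against -0.23 (SE 0.073) in females. Akr1c13 was at 80.6, 75.5, 79.5 and 59.5 CPM in male WT and at 60.8, 63.3, 62.3 and 52.8 CPM in male LKO. In females it was at 67.9, 58.7, 58.5 and 66.7 CPM in WT and at 50.4, 55.7, 35.6 and 50.7 CPM in LKO. Its groups overlapped in males, where male WT replicate 4 was low, and not in females. The log2 fold change of Akr1c13 in males was -0.30 (SE 0.095), against -0.39 (SE 0.12) in females. A single run of title numbers held males of both genotypes. There the male WT library had 59.5 CPM of Akr1c13 and the male LKO library 60.8 CPM. With the runs as a factor the log2 fold change of Akr1c13 in males was 0.034. Such a fit takes the male difference only from that run, so it repeats the comparison of these single libraries. Akr1c19 varied most between replicates, from 33.2 to 70.7 CPM in male WT, 33.6 to 52.2 in male LKO, 41.5 to 59.8 in female WT and 26.002 to 44.1 CPM in female LKO. Its groups overlapped in both sexes, with a log2 fold change of -0.34 (SE 0.26) in males and -0.52 (SE 0.19) in females. In the same run Akr1c19 was at 33.2 CPM in male WT and 43.7 CPM in male LKO, and with the runs as a factor its log2 fold change in males was 0.40. For Akr1c12 these values were 73.6 and 68.5 CPM, with -0.10 in males. Summed per length, the 4 Akr1c genes gave 200 ± 25.6 in male WT, 159 ± 9.69 in male LKO, 171 ± 14.9 in female WT and 128 ± 18.1 CPM per kilobase in female LKO. The share of Akr1c14 in that sum was 13.96% ± 2.17 in male WT against 10.5% ± 2.08 in male LKO, and 14.2% ± 1.69 in female WT against 10.6% ± 1.25 in female LKO (SD, n = 4 each). The shares overlapped between genotypes in males and not in females. Neither the sum nor the share was corrected for the windows that Akr1c12 and Akr1c13 share, so the share of Akr1c14 may be overstated.

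Among the remaining 6 enzymes Hsd17b13 had the largest log2 fold change between genotypes in males and over both sexes. In females that of Srd5a1 was larger in size. Hsd17b13 was at 6.74 ± 0.761 CPM in male WT and 8.49 ± 1.11 CPM in male LKO, and at 9.06 ± 1.16 CPM in female WT and 9.90 ± 1.63 CPM in female LKO. Its log2 fold change in males was 0.34 (SE 0.14), against 0.14 (SE 0.14) in females, with overlapping groups. Srd5a1 stood between 13.7 and 19.6 CPM in all libraries, with a log2 fold change of -0.18 (SE 0.10) in males and -0.16 (SE 0.093) in females. For Hsd11b1, Hsd11b2 and Hsd17b11 the genotype difference was smaller than its SE in both sexes and in the fit over both, and for Hsd17b2 in females and in the fit over both. In males Hsd17b2 had a log2 fold change of 0.09 (SE 0.065). Hsd11b1 ranged from 6.69 to 10.6 CPM, Hsd11b2 from 40.8 to 69.9 CPM and Hsd17b11 from 188 to 246 CPM over the 16 libraries.

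**Figure D2:**
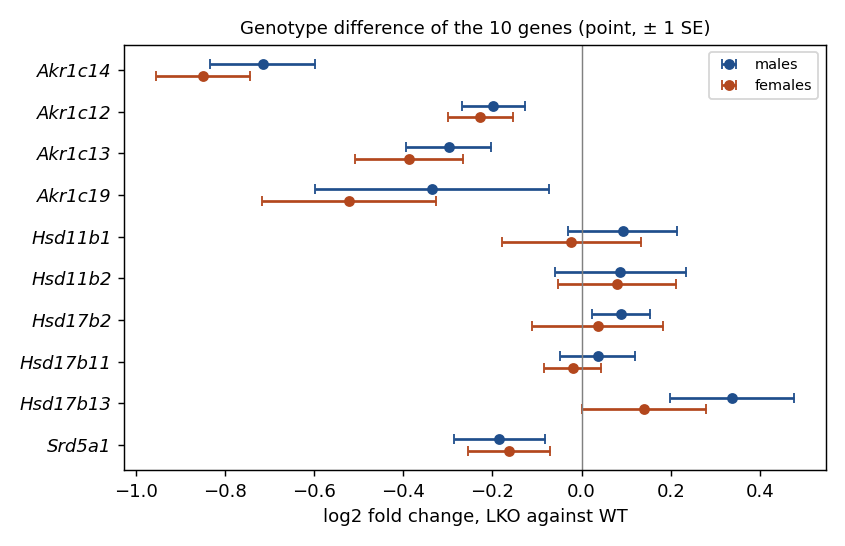
Log2 fold change of LKO against WT for the 10 genes (horizontal axis), with 1 SE to each side, from edgeR fits in the 8 male and the 8 female libraries. Akr1c14 lies farthest from 0, at -0.72 in males and -0.85 in females, the other Akr1c genes lie at smaller negative values, and most dehydrogenases lie near 0.

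By the edgeR quasi-likelihood test with Benjamini-Hochberg adjustment over all genes, 0 of the 10 genes passed an adjusted p of 0.05 in males, where 0.0527% of the 15169 genes tested did. DESeq2 called 1. In females 1 of the 10 (Akr1c14) passed, where 0.0392% of 15298 genes did, and over both sexes 1 of the 10 (again Akr1c14) passed, where 0.269% of 15598 genes did. At an unadjusted p below 0.05 there were 4 of the 10 in males, where 5.29% of all genes tested were, 4 in females, where 11.7% were, and 6 over both sexes, where 11.2% were. Since Akr1c14 was picked on this contrast, nothing is read from these counts or from the p-values that follow. Its adjusted p in females stayed under 0.05 without female WT replicate 2 and not without any other of the 8 libraries (0.0650 to 0.121), and in males it went under 0.05 without male LKO replicate 2 (0.0257) or replicate 3 (0.0108). Akr1c12 and Akr1c13 were also called over both sexes without male WT replicate 4, with adjusted p 0.0273 and 0.0166. With the runs of title numbers as a factor, Akr1c14 passed neither in females nor over both sexes (edgeR adjusted p 0.0957 over both sexes). All LKO libraries lay below all WT libraries for 2 of the 10 genes in males and 3 in females, where 1.31% and 3.27% of all genes tested did so. The median log2 fold change of the 10 genes was -0.07 in males and -0.09 in females, beside 0.00 and 0.01 over all genes tested.

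The summed Paneth and enterocyte markers did not overlap between genotypes in males, and the other sums given here overlapped. In most lists no marker passed the adjusted threshold. The part of the marker lists in the genotype differences was not tested except as stated. In males the 5 Paneth cell markers summed to 12691 to 14669.5 CPM in WT and 17829 to 22313 CPM in LKO, and 3 of the 5 were higher in LKO (edgeR). The 8 enterocyte markers summed to 7776 to 9120.1 CPM in male WT and 9138 to 9809 CPM in male LKO, with 0 of 8 passing. Of these markers Fabp6 had the largest gap between the means, at 3048 CPM in male WT and 3954 CPM in male LKO. Slc10a2 and Apoa4 had lower means in male LKO and the other markers higher ones, with Vil1 at a log2 fold change of 0.04. In females the 7 B cell follicle markers summed to 20.0 to 61.9 CPM in WT and 24.7 to 344 CPM in LKO, so the groups overlapped, with 0 of 7 passing. The colon and cecum markers summed to 228 to 1169 CPM in female WT and 169 to 230 CPM in female LKO, with a median log2 fold change of -0.31 over the 5 tested, of which 0 passed. In males they summed to 231 to 717 CPM in WT and 208 to 1405 CPM in LKO, with a median of 0.25 and 0 of 5 passing. These sums overlapped between genotypes in both sexes. Their spread came largely from Car1, which ranged from 0.44 to 916 CPM in female WT and from 0.86 to 1154 CPM in male LKO. With the log2 of the B cell sum as a covariate, added after the data were seen, the log2 fold change of Akr1c14 was -0.81 in females (edgeR adjusted p 0.0641) and -0.78 over both sexes (edgeR adjusted p 0.000667). Akr1c14 was picked on this contrast, so these values are a description and nothing is read from their p-values.

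The difference between the genotype effects of the sexes was not itself the contrast used to choose these genes. It was tested as an interaction over all 16 libraries. Akr1c14 was picked for its lower level in LKO, so its own interaction may not be free of that choice. By edgeR 0 of the 10 passed the adjusted threshold, DESeq2 called 0, and 0% of the 15598 genes tested were called. At an unadjusted p below 0.05 there were 0 of the 10, where 5.64% of all genes tested were. For Akr1c14 the male effect minus the female effect was 0.13 on the log2 scale (edgeR adjusted p 0.918, SE 0.17). For Akr1c19 it was 0.18 (SE 0.34) and for Hsd17b13 0.19 (SE 0.20), so differences of about this size were not detectable here.

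The sex difference was also not used to choose the genes, although earlier results of these data were known when they were chosen. Males were higher for Akr1c12, Akr1c13 and Hsd17b2 and lower for Hsd17b13, with genotype as a covariate. These were 3 of the 10 genes higher in males, where 5.61% of all genes tested were, and 1 lower, where 5.44% were, so 4 of 10 against 11% in either direction. Akr1c12 and Akr1c13 are the near-identical pair, so they may not count as separate results. With upper-quartile scaling 26.2% of all genes called were higher in males, compared with 50.8% with TMM scaling, and 3 of the 10 genes were called. With the runs of title numbers as a factor 0 of the 10 passed, at log2 fold changes of 0.25 for Akr1c12, 0.25 for Akr1c13, 0.27 for Hsd17b2 and -0.25 for Hsd17b13 (edgeR adjusted p 0.110 to 0.304). Akr1c12 gave the smallest p, with a log2 fold change of 0.27 (edgeR adjusted p 0.00363, SE 0.049), and passed in all 16 fits that left out 1 library. Its values given above were 73.6 to 85.6 CPM in male WT and 63.4 to 68.8 CPM in female WT. Male LKO stood at 66.1 to 71.7 CPM and female LKO at 48.7 to 60.2 CPM. The sexes did not overlap within either genotype but did across the genotypes. How many of all genes tested separate in this way was not counted, so nothing is read from it. Akr1c13 had the same log2 fold change of 0.27 with a larger error (edgeR adjusted p 0.0391, SE 0.081). It kept an adjusted p under 0.05 in 5 of 16 fits that left out 1 library, namely without male WT replicate 4, male LKO replicate 4, female WT replicate 1, female WT replicate 4 or female LKO replicate 2, and lay between 0.0511 and 0.0799 in the other 11.

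Hsd17b2, which oxidises estradiol and testosterone, was at 85.3, 79.3, 83.1 and 90.2 CPM in male WT and at 89.0, 96.8, 87.8 and 84.5 CPM in male LKO. In females it was at 66.5, 63.1, 62.1 and 88.4 CPM in WT and at 67.5, 91.3, 63.9 and 64.7 CPM in LKO. In each female group 3 libraries lay below all males and 1 lay within the male range. The log2 fold change was 0.29 (edgeR adjusted p 0.0255, SE 0.079), and the adjusted p rose to 0.0530 without female WT replicate 2, to 0.0518 without female LKO replicate 1 and to 0.0524 without female LKO replicate 3. Hsd17b13, the lipid droplet protein, was at 7.72, 5.86, 6.69 and 6.67 CPM in male WT and at 8.09, 8.01, 7.71 and 10.1 CPM in male LKO. In females it was at 10.3, 8.86, 7.57 and 9.48 CPM in WT and at 11.8, 10.6, 8.87 and 8.29 CPM in LKO. The sexes overlapped in both genotypes, and the log2 fold change was -0.32 (edgeR adjusted p 0.0380, SE 0.098). It stayed under 0.05 in 5 of 16 fits that left out 1 library, namely without male WT replicate 1, male LKO replicate 4, female WT replicate 3, female LKO replicate 3 or female LKO replicate 4, and lay between 0.0513 and 0.0832 in the other 11. Akr1c14 itself had a log2 fold change of 0.24 between the sexes (edgeR adjusted p 0.0743, SE 0.086), which passed without male LKO replicate 3 (edgeR adjusted p 0.0261) or female WT replicate 3 (edgeR adjusted p 0.0496). Akr1c19 had 0.27 (edgeR adjusted p 0.292, SE 0.17) and the other 4 genes lay between -0.03 and 0.14.

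**Figure D3:**
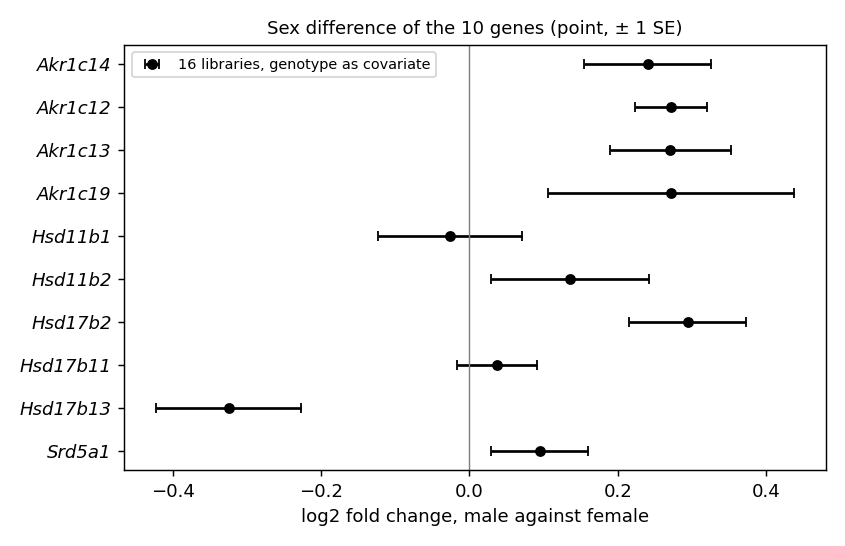
Log2 fold change of males against females for the 10 genes (horizontal axis), with 1 SE to each side, from an edgeR fit to 16 libraries with genotype as a covariate. The Akr1c genes and Hsd17b2 lie between 0.24 and 0.29, and Hsd17b13 lies at -0.32.

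**Figure D4:**
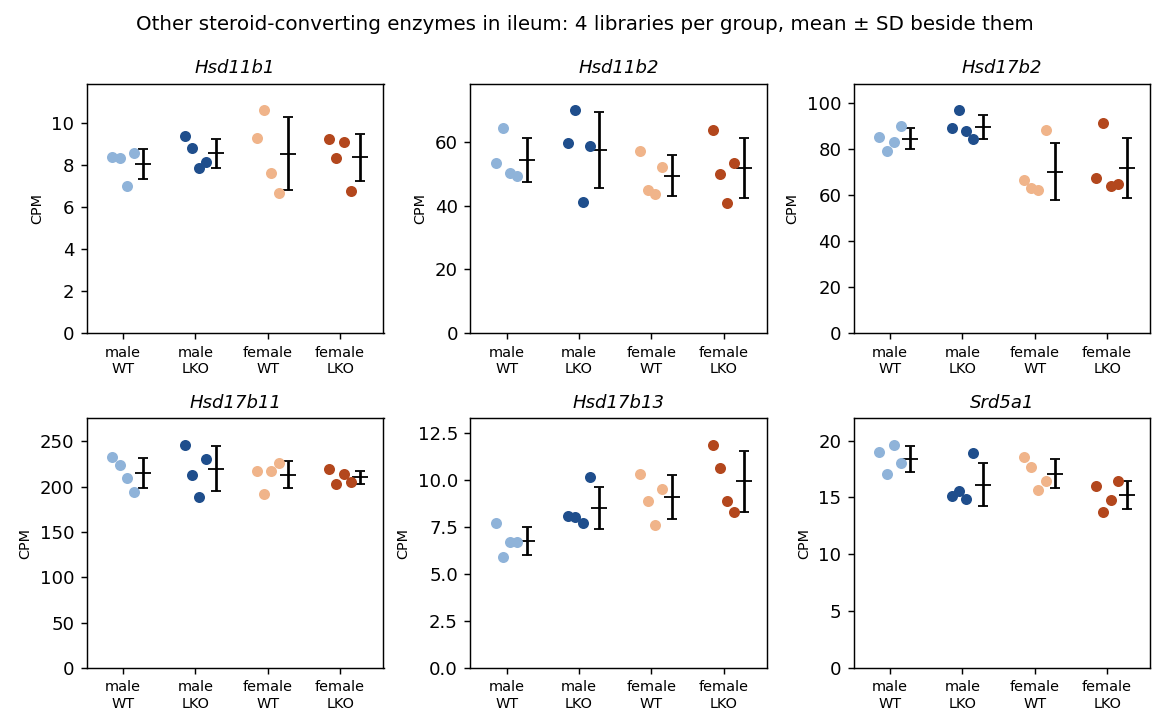
Levels of the 6 enzymes outside the Akr1c family in CPM (vertical axes, from 0) in the 4 groups; each point is a library and the bar beside it is the mean ± SD (n = 4). For Hsd17b2 a single female library in each genotype, a WT library at 88.4 CPM and an LKO library at 91.3 CPM, lies among the males, and Hsd17b13 is lowest in male WT.

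Markers of other tissue layers moved with sex. Of 6 smooth muscle markers 5 were lower in males (edgeR), and their sum was 2764 to 3595 CPM in males and 3522 to 5418 CPM in females. Of 5 stromal markers 2 were lower in males, as were 3 of 5 Paneth cell markers, whereas 1 of 8 enterocyte markers was higher. With the log2 of the smooth muscle sum as a covariate, added after the data were seen, 0 of the 10 genes passed and only 9 of all genes did. The log2 fold changes were then 0.23 for Akr1c12 (edgeR adjusted p 0.358), 0.24 for Akr1c13 (edgeR adjusted p 0.567), 0.33 for Hsd17b2 (edgeR adjusted p 0.419) and -0.32 for Hsd17b13 (edgeR adjusted p 0.497).

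Whether the 10 genes varied together was examined within groups, as the deviation of log2 CPM from the group mean in each library. Over 45 pairs of genes, 1 passed Benjamini-Hochberg adjustment by an exact permutation test over 331776 relabellings within groups (two-sided). That pair was Akr1c13 and Akr1c19, with Pearson r 0.861 (exact permutation p 0.000347, adjusted p 0.0156) and Spearman rho 0.847 (exact permutation p 0.00035, adjusted p 0.0157). When the 2 libraries with the most extreme Akr1c13 values were left out, r was 0.818. Within the only run of neighbouring title numbers with 6 libraries r was 0.890. That run holds both of the extreme libraries, female LKO replicate 3 and male WT replicate 4. The deviations were taken from group means that span several runs, so the value within the run does not remove a difference between runs. Akr1c13 and Akr1c19 share no read-length window. Akr1c12 and Akr1c13, which do share windows, had r 0.797 (exact permutation p 0.0106, adjusted p 0.143) and rho 0.83 (exact permutation p 0.00483, adjusted p 0.109), and r was 0.500 without the 2 most extreme libraries and 0.976 within the run of 6 libraries. The libraries left out were the same 2, so the run of 6 holds both. Akr1c14 had r of 0.03 to 0.16 with the other Akr1c genes, and its highest value was with Hsd11b2 (r 0.753, exact permutation p 0.0047, adjusted p 0.106, rho 0.626, exact permutation p 0.0248, adjusted p 0.223, r 0.649 without 2 libraries). Of 80 relations between the 10 genes and the 8 marker sums 0 passed, and the smallest adjusted p was 0.933 (exact permutation).

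**Figure D5:**
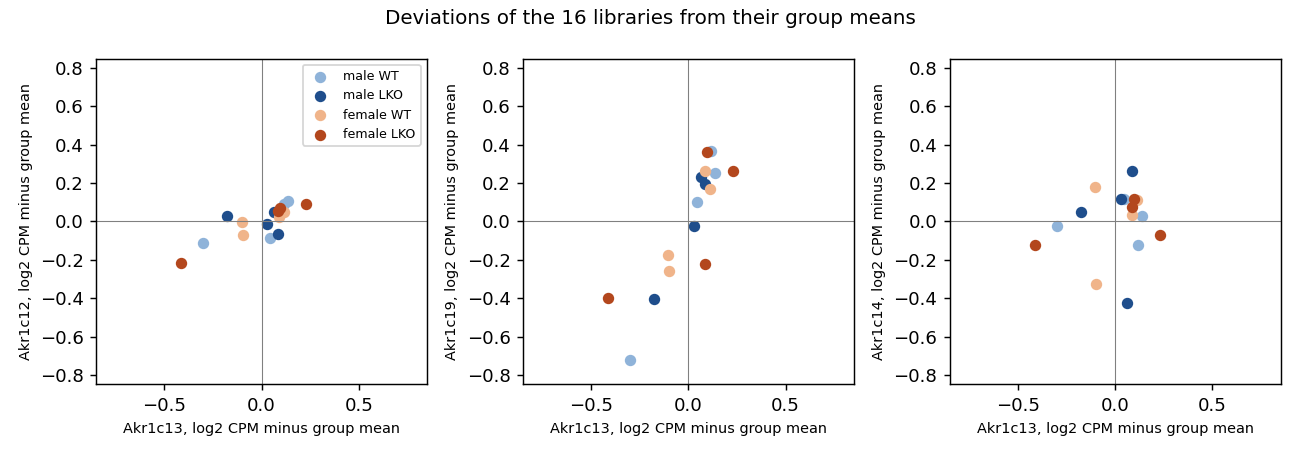
Deviation of each of 16 libraries from its group mean, in log2 CPM, for Akr1c13 (horizontal axes) against Akr1c12, Akr1c19 and Akr1c14 (vertical axes); colours are the 4 groups. Akr1c13 and Akr1c19 line up (r 0.861), and Akr1c13 and Akr1c14 do not (r 0.159).

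In the same measure, the 5 genes whose variation was most like that of Akr1c14, out of 14422 genes with a mean of at least 1 CPM, were Cux2 (r 0.870), Mdfic (r 0.862), Igfbp6 (r 0.860), Stx17 (r 0.859) and Setd7 (r 0.859). These are the highest of many correlations over 16 libraries and are given as a description.

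Other genes of steroid metabolism were counted in lists chosen from general knowledge. Of the 15 genes of the Akr1c cluster and its close relatives 9 were tested. Akr1c6, Akr1c18, Akr1c20, Akr1c21, Akr1cl and Akr1d1 lay below 0.51 CPM in every library and were not tested. Among the relatives, Akr1a1, a general aldehyde reductase, stood at 617 to 660 CPM on group average, and Akr1b8 at 11.6 CPM in male WT, 16.3 in male LKO, 11.2 in female WT and 14.8 CPM in female LKO, with a log2 fold change over both sexes of 0.45 (edgeR adjusted p 0.116, SE 0.12). In the genotype comparison over both sexes the only other list gene that passed was Ugt2b34, which encodes a glucuronosyltransferase. It stood at 441 ± 52.5 CPM in male WT, 375 ± 9.78 in male LKO, 434 ± 40.8 in female WT and 328 ± 24.4 CPM in female LKO (SD, n = 4 each), and its log2 fold change was -0.32 (edgeR adjusted p 0.031, SE 0.059). Of 18 further dehydrogenases and reductases tested, 10 genes of steroid synthesis from cholesterol, 6 of steroid conjugation, 4 steroid receptors and 12 glucocorticoid-induced genes, 1 passed in this comparison, which was Ugt2b34. The median log2 fold change of the receptors was -0.27 and that of the glucocorticoid-induced genes 0.11, beside 0.00 over all genes.

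Between the sexes 3 of the 18 further dehydrogenases and reductases were higher in males and 0 lower. Of all genes tested 5.61% were higher in males and 5.44% lower. Fits with the runs of title numbers or the smooth muscle sum, in which far fewer of all genes passed, are not given for these genes. The sex difference of Hsd17b7 was known from earlier results of these data. Hsd17b7, an enzyme of cholesterol synthesis, was at 58.2 ± 7.35 CPM in male WT, 60.2 ± 6.62 in male LKO, 44.9 ± 1.66 in female WT and 39.6 ± 4.32 CPM in female LKO (edgeR adjusted p 0.00138, log2 fold change 0.49, SE 0.071). Hsd17b12, an enzyme of fatty acid elongation, had a log2 fold change of 0.25 (edgeR adjusted p 0.00522, SE 0.048). Dhrs9, at a group mean of 1.92 to 4.84 CPM, had 1.16 (edgeR adjusted p 0.031, SE 0.32). Its male WT libraries ranged from 2.19 to 9.29 CPM. Of the steroid synthesis, conjugation and glucocorticoid-induced lists 0 genes passed between the sexes.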

How the data were processed

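RNA was measured in terminal ileum of 16 mice. The authors made stranded mRNA libraries, sequenced 100-base single-end reads, aligned them to mm10 with STAR 2.5.2 (1 mapping position, up to 4 mismatches) and counted exons with HOMER 4.10, so the deposited values are raw counts per gene. The strand option and annotation version are not given in the sources used here. Groups and replicate numbers came from the sample titles. The counts were tested in R 4.3.3 with the edgeR 4.0.16 quasi-likelihood F-test (robust, TMM scaling, filterByExpr by group) and Benjamini-Hochberg adjustment over all genes tested, at a threshold of 0.05. The male and female genotype fits used 8 libraries, and the others used 16 with sex or genotype as a covariate. The SE is the log2 fold change divided by the square root of F. DESeq2 1.42.0, other scalings, no filter, leaving out each library, thinning the deepest library, the replicate number and the title number were alternatives. Scripts that test across genes were tested on simulated data. Coding sequences came from GENCODE M21 and promoters from RefSeq GRCm38.p6. The 10 genes and all lists were chosen with earlier results of these data known. The 10 genes are always named; from each list, genes under the threshold are named, at most 3 per comparison, and Akr1b8, Akr1a1 and the untested Akr1c genes were named after their values were seen. Of the list genes under the threshold, 1 is not reported here.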

Additional observations from a re-analysis of the deposited data

Results flagged for a closer look

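In 6 of the 40 groups of 4 libraries examined (10 genes, 4 groups), the most distant library lay farther from its neighbours than a test for a single stray value allows, where chance alone gives about 1 in 20 groups. Akr1c12 was 48.7 CPM in female LKO replicate 3, with the others at 58.9 to 60.2 CPM. Hsd11b1 was 7.02 CPM in male WT replicate 3, with the others at 8.35 to 8.57 CPM. Hsd17b2 was 88.4 CPM in female WT replicate 4, with the others at 62.1 to 66.5 CPM, and 91.3 CPM in female LKO replicate 2, with the others at 63.9 to 67.5 CPM. In male LKO replicate 4, Hsd17b13 was 10.1 CPM with the others at 7.71 to 8.09 CPM, and Srd5a1 was 18.9 CPM with the others at 14.9 to 15.5 CPM.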

How the results depend on the processing

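The number of the 10 genes called depended on the processing. In males it was 0, and 1 with DESeq2, without the low-count filter, or with the replicate block, and 0 to 1 with a library left out. In females it was 1, and 0 with the run of title numbers as a factor or with the B cell sum as a covariate, and 0 to 1 with a library left out. Over both sexes it was 1, then 3 with DESeq2, 0 with the run of title numbers as a factor and 1 to 3 with a library left out. Between the sexes it was 4, then 1 with the title number as a covariate, 0 with the run of title numbers as a factor, 0 with the smooth muscle sum as a covariate and 1 to 4 with a library left out. The cause was not tested.

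Among all genes, DESeq2 called 63 in males, 154 in females and 224 over both sexes, where edgeR called 8, 6 and 42. With 1 library left out edgeR called 5 (without male WT replicate 1) to 29 (without male WT replicate 4) in males, 0 to 4 in females, 5 (without male WT replicate 1) to 102 (without male WT replicate 4) over both sexes and 934 (without male LKO replicate 3) to 1956 (without female WT replicate 3) between the sexes, so the shares of all genes called vary likewise. Without the filter 25 were called in males and 15 in females, the newer quasi-likelihood method called 10 in females, the title number as a covariate left 3 in males, 2 over both sexes and 326 between the sexes, and the run of title numbers as a factor left 3 in males, 0 over both sexes and 90 between the sexes, from 1723. With the deepest library thinned, 3 were called in females and 25 over both sexes.

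The differences larger than their SE, 27 in number, kept their direction in 580 of 584 refits. The exceptions were in males. With the title number as a covariate Akr1c19 was at 0.12. With the runs of title numbers as a factor Akr1c19 was at 0.40, Akr1c13 at 0.034 and Hsd17b2 at -0.017. In males the fit with runs rests on a single library of each genotype, so these values all come from the same libraries. The 23 differences within their SE changed sign in 62 of 526 refits with 0 calls; they were set apart after these values were seen. Same-numbered replicates correlated at -0.103 to 0.256 and do not pair the animals. With the replicate block, 16 genes were called in males, 15 in females and 16 over both sexes. In males 2 runs of title numbers held LKO libraries only, and 1 run held both genotypes.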
